A study of Mus musculus with 10 samples.

Results

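In all, 10 genes named as targets and effectors of Wnt/beta-catenin signalling were followed in right ventricle RNA of 10 mice: Axin2, Lgr5, Ccnd1, Ccnd2, Myc, Lef1, Tcf7, Tcf7l2, Fzd7 and Sfrp2. They were chosen by symbol, as all probe sets that the array annotation assigns to one of these genes. This gave 22 of the 22690 probe sets on the array for 9 of the 10 genes. Tcf7 had no probe set under its symbol, so its expression was not analysed here. Of the 22 probe sets, 12 probe sets of 6 genes were bright enough to be tested, and the other 10 are given by their values.

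The mice were of strain 129SV and were hybridised to 1 Affymetrix mouse array each. Trained wildtype (n = 4) and trained plakoglobin (+/-) mice (n = 4), each 2 males and 2 females of 6 months, swam 6 times per week in water of 35 °C for bouts lengthened from 5 to 90 min. The untrained groups were 1 wildtype and 1 plakoglobin (+/-) mouse, both females of 10 months. Training therefore cannot be told apart from age, and an untrained group has no replicate. The study asked whether mice with 1 disrupted copy of the plakoglobin gene Jup respond to swimming in another way than their wildtype littermates. The labels do not name the construction of the Jup allele or the littermate pairs. Because whole tissue was measured, fewer cells of a type and less RNA per cell cannot be told apart.

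Wnt ligands bind Frizzled receptors with LRP co-receptors and thereby stop the destruction complex from marking beta-catenin for degradation. Beta-catenin then enters the nucleus and switches on target genes together with the TCF/LEF DNA-binding proteins. Plakoglobin is the closest relative of beta-catenin, works in cell junctions of the heart, and has been studied as its competitor in the nucleus. Axin2 and Lgr5 are classical readouts of the pathway, and Ccnd1, Ccnd2 and Myc are target genes that drive cell division.

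The TCF/LEF proteins bind the letters CTTTGAT or CTTTGAA, so the promoters of the members were searched for both, on both strands. RefSeq windows of 300 bases (250 before to 50 after each start, GRCm38.p6) were held for 6 members (Axin2, Lef1, Tcf7, Tcf7l2, Fzd7 and Sfrp2) in 11 windows, and not for Lgr5, Ccnd1, Ccnd2 and Myc. None of the 11 windows held CTTTGAT or CTTTGAA, against 8.65% of 32851 windows of the same length. The shorter core CTTTG, which both motifs contain and which was searched only after these results were seen, occurred in 7 of the 11 windows, those of Lef1, Tcf7l2 and Fzd7, against 53.9% of all windows. The 250 bases before the start are shown for Axin2, the feedback gene most used as a pathway readout (chr11:108920099-108920348, plus strand), for the nuclear effector Tcf7l2 (chr19:55741560-55741809, plus strand) and for the receptor Fzd7 (chr1:59481897-59482146, plus strand). Capitals mark the core, read as CAAAG on the strand shown, and Axin2 holds none.
Axin2: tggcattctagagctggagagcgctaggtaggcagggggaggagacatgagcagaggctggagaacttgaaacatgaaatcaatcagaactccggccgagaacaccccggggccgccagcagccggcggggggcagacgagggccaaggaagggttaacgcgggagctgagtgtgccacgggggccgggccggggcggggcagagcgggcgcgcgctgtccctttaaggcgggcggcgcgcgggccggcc
Tcf7l2: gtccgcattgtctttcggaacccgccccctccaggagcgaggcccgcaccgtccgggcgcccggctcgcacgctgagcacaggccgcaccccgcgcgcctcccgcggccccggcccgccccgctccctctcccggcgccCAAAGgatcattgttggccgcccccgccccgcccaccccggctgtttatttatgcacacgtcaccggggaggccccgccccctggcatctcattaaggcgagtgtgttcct
Fzd7: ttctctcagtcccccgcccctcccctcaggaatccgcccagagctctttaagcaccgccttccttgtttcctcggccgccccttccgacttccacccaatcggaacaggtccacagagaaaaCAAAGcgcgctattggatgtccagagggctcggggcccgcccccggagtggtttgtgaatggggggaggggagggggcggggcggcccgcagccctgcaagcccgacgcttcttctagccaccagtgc
The core began 111 bases before the start in Tcf7l2 and 128 bases before it in Fzd7. A match of letters is a description and not evidence of binding.

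Array medians ranged from 897.85 to 1149.6. The GAPDH ratio, which sets the signal at the 3' end of this control RNA over that at its 5' end and rises as RNA quality is lost, stood apart in 3 arrays. Trained wildtype replicates 2 and 1 had ratios of 17.8 and 2.50, and replicate 1 of the trained plakoglobin (+/-) group had 2.98. The other 7 arrays had 0.849 to 1.02. The same ratio for the actin control was 1.29, 3.05 and 2.65 in these 3 arrays and 0.932 to 1.24 in the other 7, so the highest GAPDH ratio was not matched by a high actin ratio. Jup itself read 2928.3, 3206.9, 3995.5 and 4322.0 in trained wildtype mice and 1991.7, 3519.9, 2229.7 and 2362.8 in trained plakoglobin (+/-) mice, so 1 mouse of the second group lay inside the range of the first. The array labelled untrained plakoglobin (+/-) read higher for Jup (3156.9) than the array labelled untrained wildtype (2386.8), against the direction of the labels. Whether the disruption removes the sequence that this probe set detects was not given in the sources used here. All 8 cardiomyocyte markers had high signals, with a sum of 1404612 to 1799015 in trained and 1751832 and 1951540 in untrained mice, and no marker of any list read 0.

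Among the members, the clearest difference was that of Ccnd1 (cyclin D1, the partner of CDK4 and CDK6 at entry into the cell cycle). Its 3 probe sets all had a fitted log2 change below 0 in trained against untrained mice, and 1 of them passed the adjusted threshold. The 12 tested probe sets had a median log2 change of -0.59 in trained against untrained mice, beside -0.0022 over all 13576 probe sets tested. Of the 12, 1 passed an adjusted p of 0.05 (limma, Benjamini-Hochberg), beside 0.626% of all probe sets in either direction and 0.354% in the lower direction. A log2 change below 0 was seen in 10 of 12, beside 50.2%, and 4 of 12 had an unadjusted p under 0.05, all lower, beside 3.73%. These probe sets are not independent, since 8 of the 12 belong to Ccnd1 and Ccnd2.

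**Figure D1:**
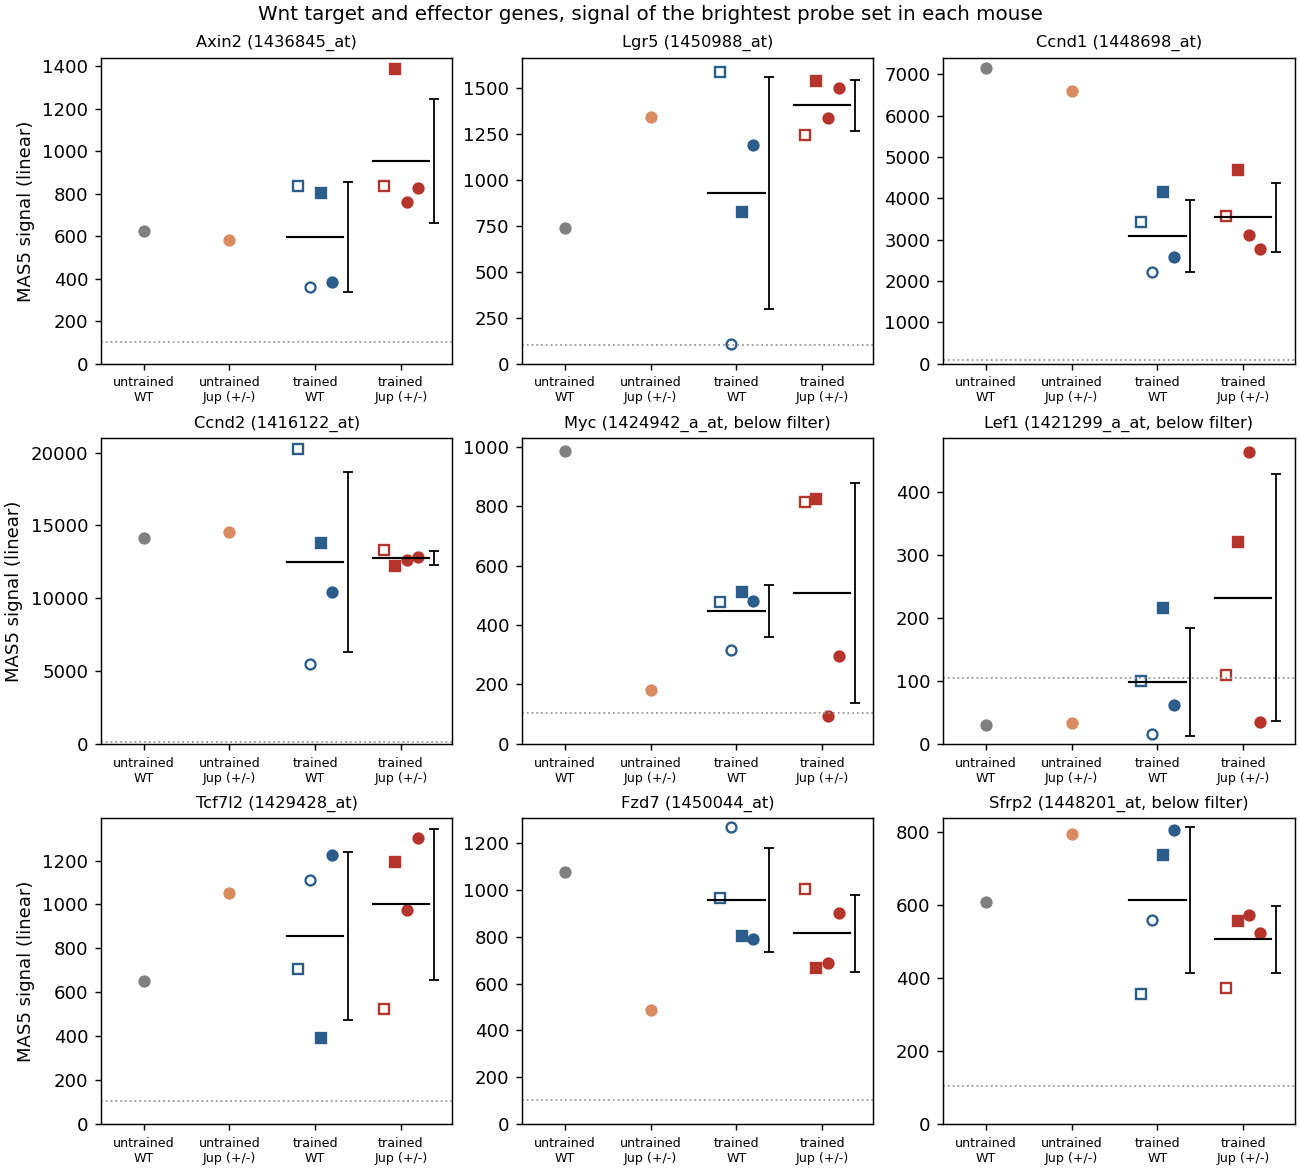
MAS5 signal (linear scale, y axis from 0) of the brightest probe set of each of the 9 measured genes in each mouse, by group (WT, wildtype; Jup (+/-), plakoglobin (+/-)). Squares are males and circles females, open symbols mark the 3 arrays with a GAPDH ratio above 2, black lines and side bars give the mean and SD of the 4 trained mice of a group, and the dotted line is the floor of 104. Only in the Ccnd1 panel does every trained mouse (2218.8 to 4684.0) lie below the untrained pair (6605.3 and 7143.9).

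Ccnd1 probe set 1448698_at read 7143.9 in the mouse labelled untrained wildtype and 6605.3 in the mouse labelled untrained plakoglobin (+/-). The trained wildtype mice read 3430.4, 2218.8, 4157.5 and 2573.8, and the trained plakoglobin (+/-) mice 3582.9, 4684.0, 3120.3 and 2767.8. Each of the 8 trained mice read lower than either untrained mouse, whichever genotype it carried. The fitted log2 change was -1.37 (SE 0.22), to 0.386 of the untrained level, with an adjusted p of 0.015 (limma, 10 mice, terms for genotype and sex). An exact two-sided permutation test of the group labels gave p = 0.0222, the smallest that 45 labelings allow, which restates that the groups did not overlap and takes no account of sex.

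The call rested on few mice. Because both untrained mice were females, the sex term makes the estimate that of the 4 trained against the 2 untrained females, and a fit of females alone gave the same -1.37 with an adjusted p of 0.0247 (limma). In limma fits without 1 mouse, the adjusted p was 0.206 without the untrained wildtype mouse (log2 change -1.21) and 0.138 without the untrained plakoglobin (+/-) mouse (-1.53). It was 0.0568 without trained plakoglobin (+/-) replicate 4 (-1.37) and 0.0533 without trained wildtype replicate 4 (-1.39), both females. Without the sex term the change was -1.09 with an adjusted p of 0.119, and without the 3 arrays of high GAPDH ratio it was -1.30 with an adjusted p of 0.00502.

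The other 2 probe sets of Ccnd1 did not pass. Probe set 1417419_at read 1838.7 and 1331.2 in the untrained wildtype and plakoglobin (+/-) mouse, 1529.2, 938.6, 1782.7 and 1322.7 in trained wildtype mice, and 1275.2, 2168.2, 831.6 and 863.6 in trained plakoglobin (+/-) mice. The groups overlapped, and its log2 change was -0.69 (SE 0.31, adjusted p 0.572). Probe set 1417420_at read 5315.6 and 4053.5 in the untrained mice, 2738.3, 3641.5, 4897.1 and 3245.9 in trained wildtype mice, and 3891.0, 4973.0, 3144.8 and 2005.7 in trained plakoglobin (+/-) mice. On this probe set 6 of 8 trained mice read lower than either untrained mouse, and its log2 change was -0.66 (SE 0.31, adjusted p 0.596).

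Ccnd2 (cyclin D2, the related cyclin expressed in growing heart muscle) had 7 probe sets, of which 5 were tested and none passed. On 2 of the 5, no trained mouse reached the level of either untrained mouse. With Ccnd1 1448698_at, 3 of 12 tested probe sets thus had groups that did not overlap in the lower direction, beside 4.61% of all probe sets. Probe set 1434745_at read 8349.5 and 9060.1 in the untrained wildtype and plakoglobin (+/-) mouse, 7047.3, 6996.9, 6941.3 and 5233.1 in trained wildtype mice, and 6071.7, 4757.0, 5308.1 and 5007.6 in trained plakoglobin (+/-) mice. Its log2 change was -0.64 (SE 0.21, adjusted p 0.348). Probe set 1430127_a_at read 6484.8 and 6425.3 in the untrained mice, 5182.1, 2407.8, 6416.2 and 4960.6 in trained wildtype mice, and 3712.9, 6142.1, 4271.5 and 4334.5 in trained plakoglobin (+/-) mice. The highest trained value, 6416.2, came close to the lower untrained value of 6425.3, and the log2 change was -0.74 (SE 0.32, adjusted p 0.524).

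The brightest Ccnd2 probe set, 1416122_at, read 14154.2 and 14528.3 in the untrained mice, 20251.3, 5484.7, 13794.6 and 10394.3 in trained wildtype mice, and 13315.6, 12191.3, 12618.9 and 12836.1 in trained plakoglobin (+/-) mice. Trained wildtype mice thus spanned a much wider range than trained plakoglobin (+/-) mice, with the highest value in wildtype replicate 1 and the lowest in wildtype replicate 2, both arrays of high GAPDH ratio. The part of RNA quality in this spread was not tested. The training log2 change was -0.55 (SE 0.33, adjusted p 0.737), and it was -0.26 without trained wildtype replicate 2 and -0.28 without the 3 arrays of high GAPDH ratio. Probe sets 1455956_x_at (-0.69, SE 0.33) and 1448229_s_at (-0.20, SE 0.39), whose suffixes mark designs that can also bind other transcripts, did not pass either (adjusted p 0.596 and 0.948). The remaining 1416123_at and 1416124_at were too dim to be tested and read 121.0 to 633.1 and 24.0 to 609.1 over the 10 mice.

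**Figure D2:**
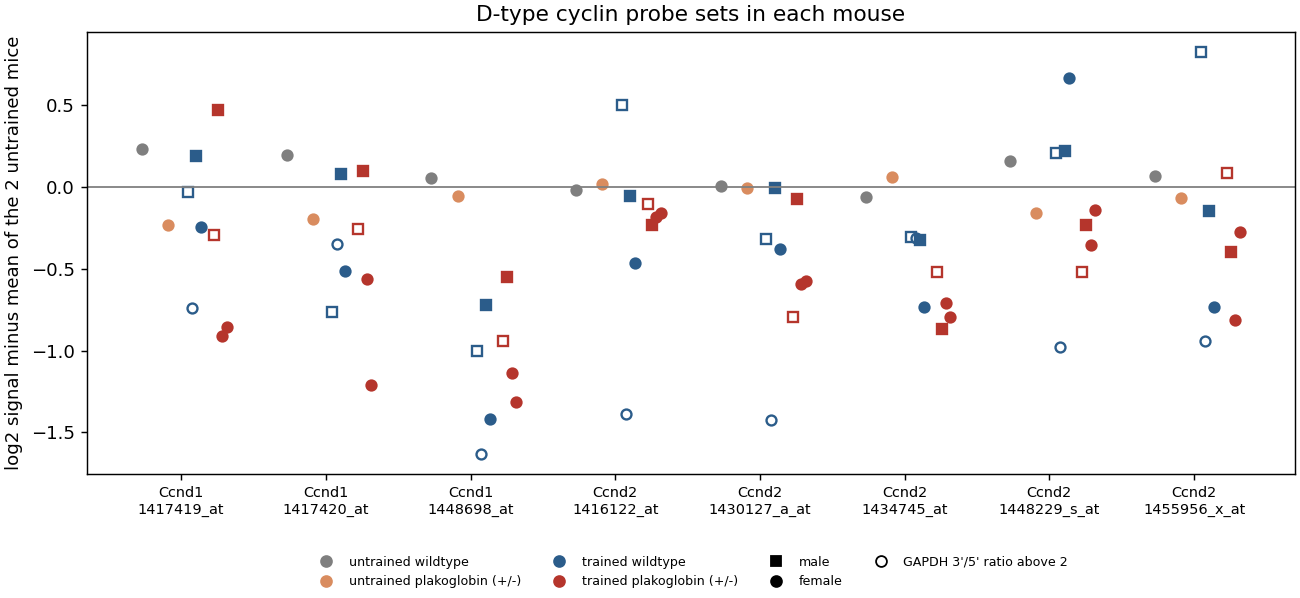
Log2 signal of each tested Ccnd1 and Ccnd2 probe set in each mouse, minus the mean of the 2 untrained mice on the log2 scale (y axis). Colours give the group, squares males, circles females and open symbols the 3 arrays with a GAPDH ratio above 2. No trained mouse reaches either untrained mouse on Ccnd1 1448698_at and on Ccnd2 1430127_a_at and 1434745_at, while the other 5 probe sets overlap.

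Markers of other cells were set beside the Ccnd1 call. The summed signal of 8 leukocyte and macrophage markers was 43186.6 and 42010.8 in the untrained mice and 25531.2 to 48977.9 in the trained mice. Of the 8, 7 had a log2 change below 0 with none past the threshold (limma), beside 4170 of 8364 genes below 0. This was not particular to leukocytes, since 7 of 8 cardiomyocyte and 7 of 8 fibroblast markers were lower too. So were 5 of 7 endothelial markers and 3 of the 5 smooth muscle and pericyte markers tested. In the 4 trained females, which carry the estimate, the leukocyte and macrophage sum was 25531.2 to 29865.8, below both untrained females. The 8 fibroblast markers summed to 120480.4 and 127876.8 in untrained and 90698.4 to 114044.1 in trained females. Over all trained mice this sum was 90698.4 to 133442.7 and overlapped the untrained pair. The 7 measured markers of proliferating cells summed to 3787.9 and 2909.2 in untrained and 2387.2 to 5280.5 in all trained mice. None of the fibroblast markers passed, nor did either of the 2 proliferating cell markers bright enough to be tested (limma). The 4 atrial markers summed to 6705.7 and 5735.7 in untrained and 20725.9 to 37329.5 in trained mice, of which the hypertrophy gene Nppa made up 4350.5 and 3966.0 in untrained and 18636.2 to 34500.7 in trained mice (log2 change 2.66, SE 0.26, adjusted p 0.00112, limma). Of the other 3 atrial markers, Myl4 did not pass (0.19, adjusted p 0.928), and Myl7 and Sln were too dim to be tested, with overlapping groups. The part of these markers in the Ccnd1 difference was not tested.

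Myc, the growth-promoting transcription factor, was too dim to be tested. Its 1 probe set, 1424942_a_at, read 984.6 and 182.5 in the untrained wildtype and plakoglobin (+/-) mouse, 478.6, 316.0, 512.6 and 481.6 in trained wildtype mice, and 815.1, 825.6, 94.5 and 297.0 in trained plakoglobin (+/-) mice. The 2 untrained mice were farther apart than the 4 trained wildtype mice, and no group stood apart.

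By genotype, the 4 trained plakoglobin (+/-) mice were set against the 4 trained wildtype mice, and no member passed the test. None of the 12 tested probe sets passed the adjusted threshold (limma), beside 0% of all probe sets, and none had an unadjusted p under 0.05, beside 2.01%. The median log2 change of the 12 was -0.036, beside 0.011 over all probe sets. Of the 12, 6 were higher and 6 lower in plakoglobin (+/-) mice, and the probe sets of Ccnd1 (1 of 3 higher) and of Ccnd2 (2 of 5 higher) lay on both sides. Most of the 12 belong to these 2 genes and are not independent. By the brightest probe set, 5 of 6 members were higher and 1 lower, beside 4279 of 8364 genes higher. Their median was 0.24, beside 0.0053 over these genes. The single tested probe sets of Axin2, Lgr5 and Tcf7l2 were on the higher side and that of Fzd7 on the lower.

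Axin2, a scaffold of the destruction complex that Wnt signalling induces as its own brake, read 626.6 and 581.6 in the untrained wildtype and plakoglobin (+/-) mouse on probe set 1436845_at. The trained wildtype mice read 836.1, 360.5, 803.1 and 383.5, and the trained plakoglobin (+/-) mice 835.6, 1387.1, 764.1 and 830.1. The group means were 595.8 ± 258.9 (SD, n = 4) in trained wildtype and 954.2 ± 290.4 (SD, n = 4) in trained plakoglobin (+/-) mice. Both wildtype males lay within the range of the plakoglobin (+/-) mice, and both wildtype females below it. The log2 difference, plakoglobin (+/-) minus wildtype, was 0.75 (SE 0.36) with an adjusted p of 1 (limma), and it lay between 0.65 and 0.96 when each trained mouse was left out in turn. An exact two-sided permutation test gave p = 0.2, where 70 labelings allow 0.0286 at the smallest. By training the log2 change was -0.15 (SE 0.45, adjusted p 0.972, limma). The second Axin2 probe set, 1421341_at, was at or below the floor of 104 on 6 of 10 arrays and was not tested.

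Lgr5, a receptor for R-spondins that strengthens Wnt signalling and marks stem cells in several tissues, read 740.6 and 1346.2 in the untrained mice on probe set 1450988_at. The trained wildtype mice read 1590.7, 108.5, 828.1 and 1191.1, and the trained plakoglobin (+/-) mice 1248.2, 1540.7, 1336.1 and 1502.7. The value of 108.5 in wildtype replicate 2, the array with a GAPDH ratio of 17.8, lay far below the rest. The genotype log2 difference was 1.13 (SE 0.69, adjusted p 1, limma) with this mouse and 0.26 without it. The part of RNA quality in this value was not tested. By training the log2 change was -0.48 (SE 0.80, adjusted p 0.933), and 0.35 without the same mouse.

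**Figure D3:**
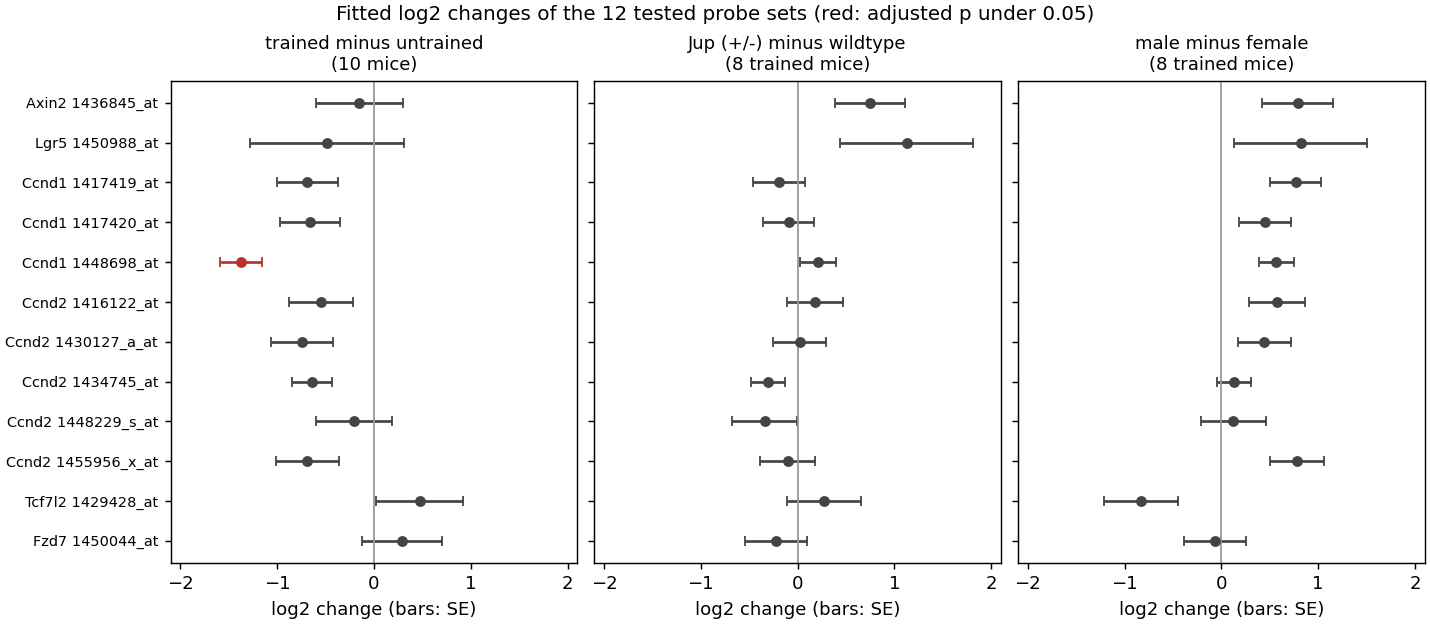
Fitted log2 change (points) with its SE (bars) of the 12 tested probe sets for training over 10 mice, and for genotype and sex over the 8 trained mice. Red marks an adjusted p under 0.05, which only Ccnd1 1448698_at reached, at -1.37 by training.

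The nuclear effectors Tcf7l2 and Lef1 were too dim to be tested on all but 1 probe set. Tcf7l2, the TCF family member best known from gut and metabolic tissue, was tested on 1 of 4 probe sets. On 1429428_at it read 649.1 and 1053.1 in the untrained mice, 704.6, 1109.6, 392.5 and 1225.6 in trained wildtype mice, and 524.6, 1194.6, 976.1 and 1304.7 in trained plakoglobin (+/-) mice. The groups overlapped throughout, with a log2 change of 0.47 (SE 0.45, adjusted p 0.87, limma) by training and a log2 difference of 0.27 (SE 0.38, adjusted p 1) by genotype. The 3 other Tcf7l2 probe sets read 65.0 to 898.6 over all mice and were too dim to be tested.

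Lef1, a member of the same family that is prominent in developing lymphocytes, was at or below the floor on 6 of 10 arrays. Probe set 1421299_a_at read 30.0 and 33.5 in the untrained mice, 100.5, 16.0, 215.5 and 61.5 in trained wildtype mice, and 110.0, 320.5, 463.1 and 34.5 in trained plakoglobin (+/-) mice. In 7 of 8 trained mice the value was above both untrained mice, but only 4 of them lay above the floor of 104, below which values have no order here. The 7 measured T cell markers summed to 3812.8 to 5184.5 in trained mice and 3804.4 and 3537.4 in untrained mice. Only 1 of them, Thy1, was bright enough to be tested. It read 1158.1 to 2212.2 in trained mice and 1727.7 and 1350.2 in untrained mice. The part of these markers in the Lef1 values was not tested.

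Fzd7, a Frizzled receptor for Wnt ligands, read 1076.6 and 489.1 in the untrained wildtype and plakoglobin (+/-) mouse on probe set 1450044_at. The trained wildtype mice read 968.6, 1269.2, 802.1 and 791.1, and the trained plakoglobin (+/-) mice 1005.1, 669.1, 688.1 and 902.6. Of the 8 trained mice, 7 lay between the 2 untrained mice, and the log2 changes were 0.29 (SE 0.41, adjusted p 0.918, limma) by training and -0.23 (SE 0.32, adjusted p 1) by genotype. Its other probe set, 1450043_at, was at or below the floor on 9 of 10 arrays.

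Sfrp2, a secreted Frizzled-related protein that binds Wnt ligands and is typical of fibroblasts, had 1 probe set, too dim to be tested. On 1448201_at it read 608.1 and 795.6 in the untrained mice, 355.5, 558.6, 736.6 and 805.1 in trained wildtype mice, and 372.5, 555.6, 573.6 and 522.6 in trained plakoglobin (+/-) mice. Of the trained mice, 6 of 8 read lower than either untrained mouse, and the lowest value of each trained group was that of an array with a high GAPDH ratio.

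Between the sexes, 10 of 12 tested probe sets had a higher fitted level in the 4 trained males than in the 4 trained females, beside 50.9% of all probe sets, and none passed the adjusted threshold (limma), beside 0.0516%. Most of the 12 belong to Ccnd1 and Ccnd2 and are not independent. By the brightest probe set, 4 of 6 members were higher in males and 2 lower, beside 4554 of 8364 genes higher. An unadjusted p under 0.05 was found for 3 of 12 probe sets, all higher in males, beside 4.06% in that direction. They were Ccnd1 1448698_at (log2 difference, male minus female, 0.57, SE 0.18), Ccnd1 1417419_at (0.77, SE 0.26) and Ccnd2 1455956_x_at (0.78, SE 0.28), each with an adjusted p of 0.509. Ccnd1 1448698_at read 3430.4 to 4684.0 in males and 2218.8 to 3120.3 in females, with no overlap, as did 2.98% of all probe sets in this direction. The leukocyte and macrophage marker sum was 36851.9 to 48977.9 in trained males and 25531.2 to 29865.8 in trained females, likewise with no overlap, and its part in the Ccnd1 values was not tested. Axin2 1436845_at read 803.1 to 1387.1 in males and 360.5 to 830.1 in females (log2 difference 0.79, SE 0.36, adjusted p 0.574), and Tcf7l2 1429428_at was on the other side, at 392.5 to 1194.6 in males and 976.1 to 1304.7 in females (-0.83, SE 0.38, adjusted p 0.574).

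Whether the training difference depends on genotype was asked with the genotype by training term. For this term none of 12 probe sets passed the adjusted threshold (limma), beside 0% of all, and none had an unadjusted p under 0.05, beside 3.2%. For Ccnd1 1448698_at this term was 0.32 (SE 0.40). It rests on 1 untrained mouse per genotype, and the Jup signals of these mice went against their labels. For the genotype by sex term none passed and 1 of 12 had an unadjusted p under 0.05, beside 2.66%, namely Ccnd2 1416122_at (-1.14, SE 0.48, adjusted p 1).

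Other genes of the pathway were described from lists by role, which held 122 genes outside the members, of which 109 were on the array and 59 were tested by their brightest probe set. None of the 59 passed the adjusted threshold (limma) by training or by genotype, beside 0.538% and 0% of 8364 genes. By training 35 were higher and 24 lower, beside 4194 and 4170 of all genes, with a median log2 change of 0.11 beside 0.00089. An unadjusted p under 0.05 was found for 5, beside 8.98%. By genotype 35 were higher and 24 lower, beside 4279 and 4085 of all genes, with a median of 0.053 beside 0.0053. Here 2 had an unadjusted p under 0.05, beside 2.14%, namely Tnfrsf19 and Jup itself, the gene that the genotype disrupts. Of the 6 members by brightest probe set, 4 were lower by training, with a median of -0.32, and whether they differ from the wider pathway was not tested.

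Among receptors, Lgr6, a relative of Lgr5, had the lowest adjusted p by training, 0.115 (limma). It read 3363.4 and 3508.4 in the untrained mice and 1501.7 to 2159.2 (median 1961.2) in the trained mice, with no overlap, at a log2 change of -0.94 (SE 0.22). Groups did not overlap in the lower direction for 4.35% of genes. Ryk and Lrp6, both Wnt co-receptors, had log2 changes of 0.78 (SE 0.48) and 0.35 (SE 0.31). Ryk read 2413.8 in the untrained wildtype and 491.1 in the untrained plakoglobin (+/-) mouse, and its change was -0.41 without the latter. On 1451789_a_at, also tested, the Ryk change was 0.18. Among secreted inhibitors, Wif1 read 425.1 and 611.6 in untrained and 487.1 to 3080.9 in trained mice (log2 change 1.14, SE 0.48, adjusted p 0.515). Sfrp1 on its brightest probe set (-0.33, SE 0.38) and Sfrp4 (0.079, SE 0.27) were nearer to 0. Another tested probe set of Sfrp1, 1448395_at, was at 1.38 (adjusted p 0.312, limma).

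Of the ligands, Wnt7b had a training log2 change of 0.52 (SE 0.28), Wnt2b of -0.23 (SE 0.37) and the Wnt secretion factor Wls of -0.16 (SE 0.31), all with adjusted p of 0.692 or above (limma). In the cytoplasm, the casein kinase Csnk1e read 4131.5 and 3049.4 in untrained and 4182.5 to 5914.7 in trained mice, without overlap, at 0.52 (SE 0.22, adjusted p 0.53), as 4.96% of genes did in the higher direction. The ubiquitin ligase subunit Fbxw11 (-0.30, SE 0.21) and Csnk1a1 (0.24, SE 0.18) did not pass. Beta-catenin itself, Ctnnb1, read 26526.7 and 27655.4 in untrained and 21303.1 to 35570.4 in trained mice on its brightest probe set. The log2 changes there were -0.12 (SE 0.22) by training and -0.27 (SE 0.18) by genotype. On 1430533_a_at they were -0.71 and -0.21, and on 1450008_a_at -0.19 and 0.15, so the genotype sign differed between probe sets. The nuclear partners Ctbp2 (0.35, SE 0.24), Ctnnbip1 (-0.34, SE 0.30) and Tle1 (0.24, SE 0.31), all restrainers of TCF/LEF activity, did not pass by training. Their other tested probe sets were at -0.091 (Ctbp2 1434705_at), -0.54 (Ctnnbip1 1417567_at) and -0.61 (Tle1 1422751_at), so the sign differed for Ctbp2 and Tle1. Of further known targets, the matrix protease Mmp14 (-0.78, SE 0.32), the growth factor Bmp4 (0.65, SE 0.29) and Mycn (1.42, SE 0.82) had adjusted p of 0.497, 0.566 and 0.73. In the fit without a filter, the dimmer Mycn probe sets 1417155_at and 1425922_a_at were at -0.042 and 0.094. The dimmer Mmp14 probe set 1416572_at was at -1.35 there.

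By genotype the lowest unadjusted p among these genes belonged to Tnfrsf19, a receptor of the TNF family and known Wnt target. It was 641.4 ± 183.5 (SD, n = 4) in trained wildtype and 1089 ± 114.7 (SD, n = 4) in trained plakoglobin (+/-) mice, which did not overlap, as for 0.825% of genes in this direction. The log2 difference was 0.80 (SE 0.33) with an adjusted p of 1 (limma), and the untrained wildtype and plakoglobin (+/-) mice read 982.1 and 1269.2. These values are of its brightest probe set, and on 1415921_a_at, also tested, the difference was 0.095. Gja1, the connexin of working heart muscle, was lower in plakoglobin (+/-) mice on its brightest probe set without overlap, beside 0.837% of genes, at -0.15 (SE 0.11), while its 5 other probe sets ranged from -0.43 to 0.28. Jup had a log2 difference of -0.53 (SE 0.24, adjusted p 1). The ligands Wnt6 (0.51, SE 0.28) and Wnt7b (0.29, SE 0.23), Sfrp4 (0.46, SE 0.22), Sfrp1 (-0.47, SE 0.30), the receptor Ror1 (0.36, SE 0.36), Lgr6 (0.17, SE 0.19), the scaffold Apc (0.35, SE 0.24), the co-activator Crebbp (0.73, SE 0.55) and Tle1 (-0.22, SE 0.27) did not pass. Crebbp was at 0.099 without trained wildtype replicate 4, at 1.16 without replicate 2 and at 1.55 without the 3 arrays of high GAPDH ratio. Ror1 was at 0.028 without trained wildtype replicate 2, at 0.59 without replicate 4 and at 0.047 without those 3 arrays.

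**Figure D4:**
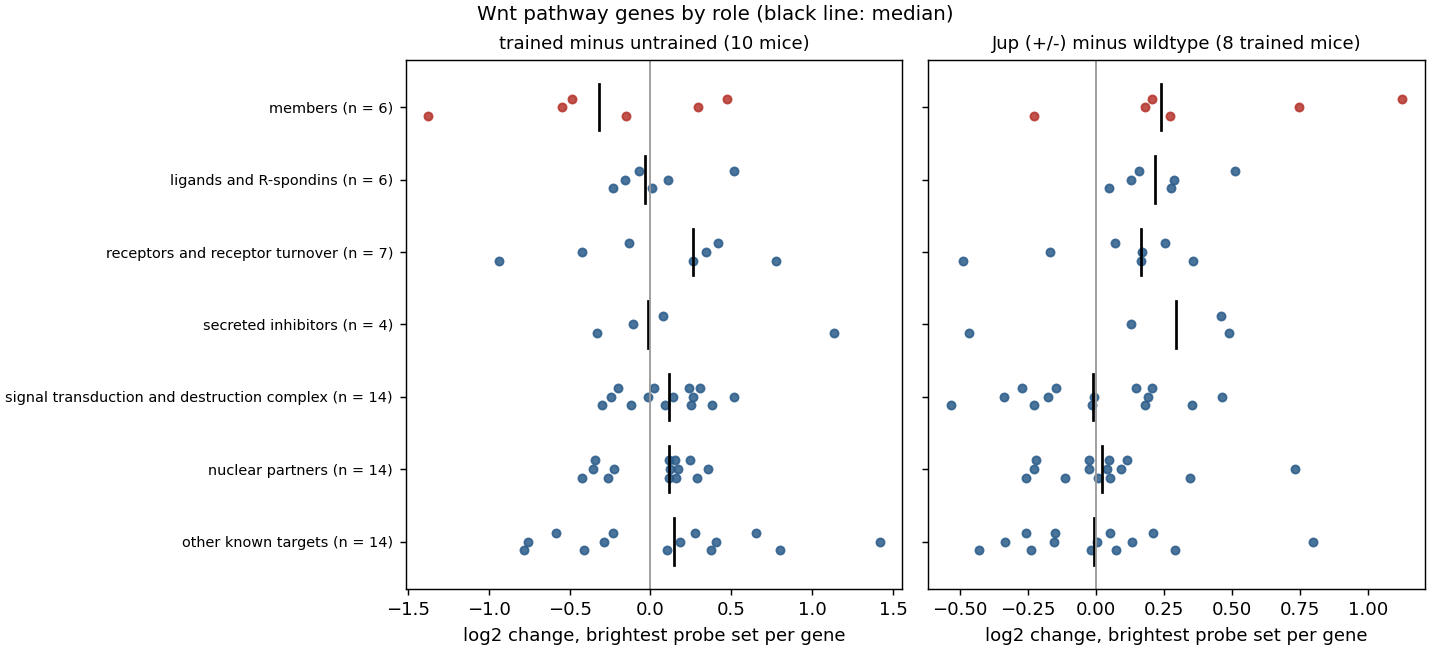
Log2 change (x axis) of the brightest probe set of each tested gene, by role in the Wnt pathway, for training over 10 mice and genotype over 8 trained mice. Red points are the 6 tested members, blue points the 59 other genes, and black lines the medians, which were -0.32 by training and 0.24 by genotype in the members.

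The genes whose profile over the 10 arrays lay nearest to a member were found as a description, by the Euclidean distance between log2 profiles set to mean 0 and SD 1, which can reach 6. Among 8363 genes, Stk25 (distance 1.02), the MHC class I gene H2-D1 (1.04) and Zfp386 (1.06) lay nearest to Ccnd1. Like Ccnd1, these 3 were themselves lower by training, at log2 changes of -2.45, -1.57 and -1.43 (adjusted p 0.015, 0.00209 and 0.0188, limma). Nearest to Axin2 were the phosphodiesterase Pde7b (1.15), Ecm1 (1.28) and the splicing factor Rbfox2 (1.36), none of which passed by training. The arrays are shared by all these genes, so their likeness has no test.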

How the data were processed

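Total RNA of the right ventricle was measured with 1 array per mouse. Per the submitters' processing notes, the authors computed the deposited signals, an intensity on a linear scale, with MAS5 version 5.0. A mean over each array without the lowest and highest 2% of values was 2501.3 to 2501.6, so all arrays had been scaled to 1 level before deposit. No genome build is given in the sources used here, and the number of arrays limits the precision.

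Values under a floor of 104 (10th percentile over all arrays) were set to it, and log2 was taken with no added scaling. Leaving out 64 controls, 13576 probe sets were tested, those whose mean log2 signal reached the 40th percentile (a signal of 661.1). Array annotation gave 1 gene symbol to 20393 probe sets, several to 691 and none to 1606, and it can be old. Probe sets with 1 symbol were used, and a gene was represented by its brightest one.

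Comparisons used limma 3.58.1 (lmFit, then trended eBayes) under R 4.3.3, two-sided, with p-values adjusted by the Benjamini-Hochberg method over all probe sets tested and a threshold of 0.05. The training fit held 10 mice, adjusted for genotype and sex. The 8 trained mice gave the genotype and sex differences in 1 fit. Interaction terms were added in further fits, where each lone untrained mouse was assumed to vary like the others. Group labels were also permuted exactly for the brightest probe set of each member. The code was tested on simulated data.

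Mice were grouped by their labels and numbered in record order, so the numbers are only names. Littermate pairs were studied, but no label ties a mouse to its littermate, so no pairing was used. The members, the pathway and marker lists and the tests were chosen with earlier results of these data known. Named are all members, Jup, Ctnnb1, up to 3 genes per role with the lowest p by training and up to 2 by genotype, and the 3 nearest profiles of Axin2 and of Ccnd1. Single markers and the highest and lowest probe sets were named after their values were seen. Alternatives were quantile and cyclic loess normalization, a pseudocount of 1 without a floor, a 25th percentile floor, no filter or a 60th percentile filter, untrended or robust eBayes, no sex term, females only, all 10 mice in 1 fit, dropping the 3 arrays whose GAPDH ratio was above 2, and dropping each mouse in turn. Protein sequences were not analysed here.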

Additional observations from a re-analysis of the deposited data

Results flagged for a closer look

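Groups of 4 trained mice on 1 member probe set each were searched for a mouse apart from the other 3 by Dixon's test on floored log2 signals, which chance passes in about 5% of groups, or 1 in 20. Of 44 groups 7 passed, but in 4 of them other mice lay at or below the floor, which then shortens the spread of those other mice. Among the 33 groups with no value at or below the floor, 3 passed. On the deposited signals, a scale chosen after seeing the data, 6 of 44 groups passed, and 3 passed on both scales (those given here for Axin2 1436845_at, Ccnd2 1434745_at and Fzd7 1450043_at). For Axin2 1436845_at, trained plakoglobin (+/-) replicate 2 read 1387.1 and the other 3 read 764.1 to 835.6. For Ccnd2 1434745_at, trained wildtype replicate 4 read 5233.1 and the other 3 read 6941.3 to 7047.3. For Myc, trained wildtype replicate 2, the array with the highest GAPDH ratio, read 316.0 and the other 3 read 478.6 to 512.6.

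The other 4 lie on dim probe sets that were not tested, and are those where the floor shortens the spread of the other mice. For Lef1, trained wildtype replicate 3 read 215.5 and the other 3 read 16.0 to 100.5, at or below the floor of 104. For Axin2 1421341_at, trained wildtype replicate 3 read 201.0 and the other 3 read 52.0 to 86.5, and trained plakoglobin (+/-) replicate 4 read 221.0 and the other 3 read 55.0 to 112.0. For Fzd7 1450043_at, trained wildtype replicate 1 read 128.0 and the other 3 read 49.5 to 54.0.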

How the results depend on the processing

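The count of member probe sets past the threshold by training was 1 and became 0 with no sex term. It ranged from 0 to 1 when each mouse was left out in turn. The counts by genotype, by sex and for both interaction terms, and those of the pathway genes outside the members by training and genotype, were 0 in every fit that was run. The genotype by training term was not run without either untrained mouse, since a genotype then has no untrained mouse. With no sex term the training change of Axin2 was 0.24. With the 3 high-ratio GAPDH arrays left out, the training changes of Lgr5 and Ccnd2 1448229_s_at were 0.32 and 0.15, and the genotype differences of Ccnd2 1430127_a_at and Ctnnb1 were -0.14 and 0.042. Leaving out 1 mouse turned further signs, none of them of a called value. By training, Axin2 ranged from -0.58 to 0.28, Lgr5 from -0.97 to 0.35, Fzd7 from -0.16 to 0.75, Ccnd2 1448229_s_at from -0.47 to 0.16, Ryk from -0.41 to 1.96, Sfrp1 from -0.78 to 0.12, Sfrp4 from -0.21 to 0.37, Ctnnb1 from -0.29 to 0.043 and Jup from -0.38 to 0.56. By genotype, Ccnd1 1417420_at ranged from -0.33 to 0.11, Ccnd2 1416122_at from -0.12 to 0.41, 1430127_a_at from -0.25 to 0.23 and 1455956_x_at from -0.29 to 0.17, Tcf7l2 from -0.030 to 0.45 and Tle1 from -0.34 to 0.057. Without 1 mouse or another, 7 of 11 uncalled member changes by training and 9 of 12 by genotype moved by over 1.5 times, as did 14 of 20 and 8 of 13 of the other pathway genes named. In all, 1222 values kept direction and call, 29 reversed, 5 lost their call and 5 counts moved. The cause was not tested, but fits without a mouse hold fewer samples. No paired analysis was possible because the samples' labels name no littermate pairs. Signals near the floor of 104 limit Lef1, Axin2 1421341_at and Fzd7 1450043_at.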

Other observations

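Probe sets of 1 gene did not always point the same way by training. Sfrp1 had log2 changes of -0.33 on its brightest probe set and 1.38 on 1448395_at (adjusted p 0.312, limma). Fbxw11 had -0.30 on its brightest probe set, -1.12 on 1425461_at and 0.33 on 1425462_at. Tle1 had 0.24 on its brightest probe set and -0.61 on 1422751_at. Ctbp2 had 0.35 on its brightest probe set and -0.091 on 1434705_at. By genotype Tnfrsf19 had 0.80 on its brightest probe set and 0.095 on 1415921_a_at. All of these missed the adjusted threshold, and the probe sets were picked with their values in view.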
